A study of Mus musculus with 8 samples.

Results

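Beige and white depot marker genes were read in brown adipose tissue (BAT) of each mouse, gene by gene. The set held 10 genes of the 44674 in the table and was chosen by name, as genes that are used to mark beige adipocytes, white adipocytes or the fat depot of origin. It comprised *Tmem26*, *Tbx1* and *Slc36a2*, which are used as beige markers, and the white and depot markers *Hoxc8*, *Hoxc9*, *Hoxc10*, *Tcf21* and *Npr3*. It also held *Mest* and *Sncg*, which are known to be high in expanding white fat. RNA from BAT was sequenced in 4 control and 4 Ox1RΔSERT male mice on the C57BL/6N background, all with floxed alleles of *Hcrtr1*, the gene of the orexin receptor Ox1R (Ox1R fl/fl). Control mice lacked the Cre transgene (Sert-Cre wt/wt) and Ox1RΔSERT mice carried it (Sert-Cre tg/wt), so that exons of *Hcrtr1* are removed in cells that use the promoter of the serotonin transporter, mainly serotonergic neurons of the brainstem. The study also describes Cre activity in the cingulate cortex and in thalamic nuclei. All mice ate a high-fat diet (HFD) from week 4 to week 18 of age and had gone through catheter surgery and a hyperinsulinemic-euglycemic clamp when the tissue was taken.

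Brown adipocytes burn fuel for heat through uncoupling protein 1, white adipocytes store lipid in a large droplet, and beige adipocytes are heat-producing cells that arise within white depots. Brown fat on a lipid-rich diet can take on features of white fat, which is called whitening, and small amounts of adjoining white fat can be carried along when the brown pad is cut out. Hox genes keep the positional identity that cells received in the embryo. Their expression along the body axis therefore differs between fat depots, and posterior members are typical of inguinal and gonadal fat.

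The libraries held 35852708 to 50063339 estimated counts. *Hcrtr1* had 0 to 5 counts in each mouse of either genotype, which checks nothing, since the deletion was directed at neurons. The tissue label was met by its defining genes: *Ucp1*, the uncoupling protein itself, lay at 1863 to 2638 TPM, a level scaled to transcript length and library size, and *Adipoq*, the adipocyte hormone adiponectin, at 288 to 435 TPM. Mitochondrial genes took 40.0% to 46.8% of the counts in control mice and 44.6%, 33.6%, 34.0% and 36.2% in Ox1RΔSERT mice 11243, 11601, 11613 and 11708. The part of this share in the results was not tested. Genes that mark macrophages and fibroblasts were highest in Ox1RΔSERT mice 11601 and 11708, and genes of skeletal muscle in control mouse 11253 and Ox1RΔSERT mouse 11708, with values given beside the results they touch. In bulk tissue, fewer cells of a type and less RNA per cell cannot be told apart.

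Of the 10 genes, 8 had counts in at least 1 mouse and *Hoxc10* and *Tcf21* had none in any mouse. The order by median TPM over the 8 mice was *Slc36a2* (141), *Sncg* (40.2), *Npr3* (16.0), *Hoxc8* (1.13), *Mest* (0.365), *Tbx1* (0.0312), *Hoxc9* (0.0141) and *Tmem26* (0.00912). *Slc36a2*, which encodes a proton-coupled amino acid transporter, lay above 98.4% of the 24567 genes with counts. The lowest mouse had more *Slc36a2* (114 TPM) than the highest mouse had *Sncg* (106 TPM). The level of *Slc36a2* in this brown tissue was not tested as a sign of beige cells. Ranges of *Sncg* and *Npr3* overlapped across mice, but *Sncg* was above *Npr3* within each of the 8 mice. *Hoxc8* was above *Mest* in 7 of 8 mice. *Tbx1* was above *Hoxc9*, and *Hoxc9* above *Tmem26*, in 5 of 8 mice each, and their order rests on single counts.

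**Figure D1:**
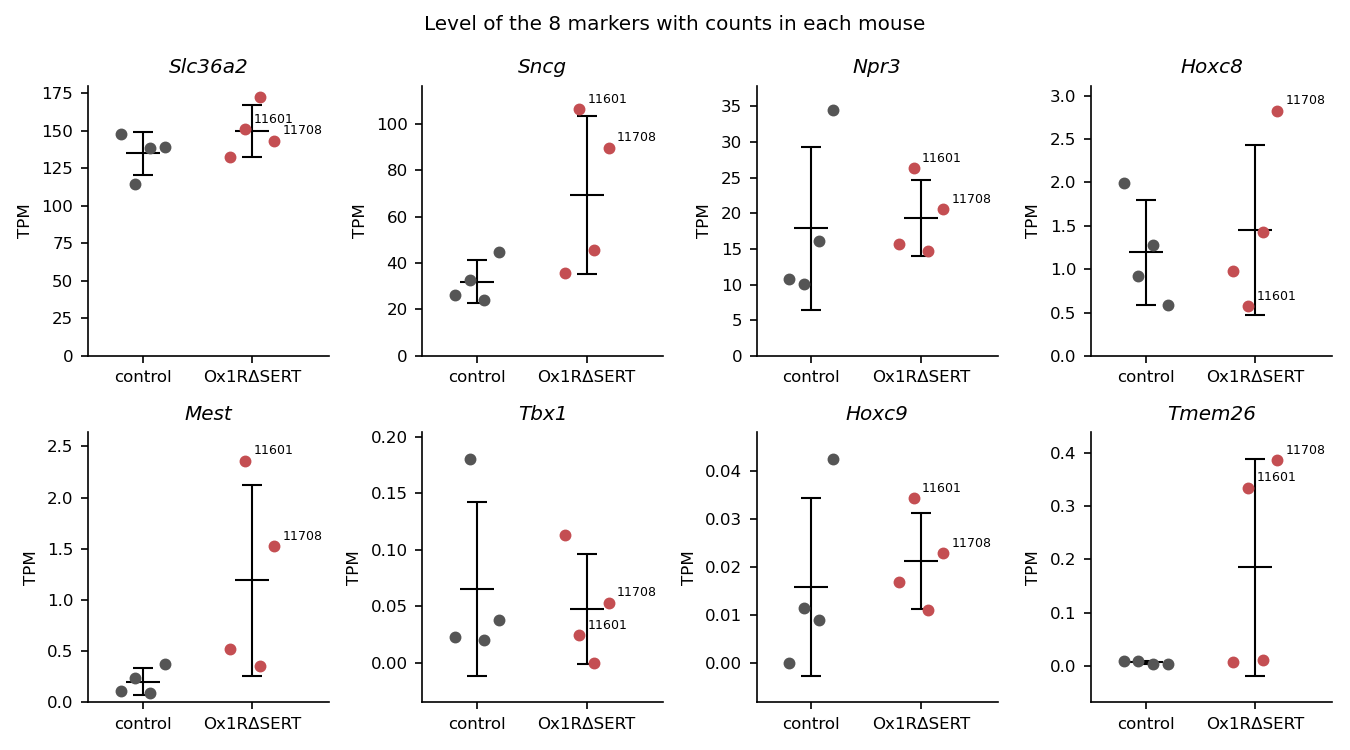
Level of each marker with counts, in TPM on a linear axis, with 1 point per mouse, the mean as a horizontal bar and the SD as whiskers (n = 4 per group). Mice 11601 and 11708 are labelled and hold the 2 highest values of Tmem26, Mest and Sncg. The 2 groups overlap for every gene shown. For the other 5 genes, these mice do not hold both of the highest values.

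Among the beige markers, *Tmem26* (ENSMUSG00000060044, chromosome 10, 68723646 to 68782650) stood out by its distribution over mice. Positions are given on GRCm38. The gene encodes a transmembrane protein used as a surface marker of beige adipocytes. Its estimated counts were 2, 2, 1 and 1 in control mice 10684, 11253, 11560 and 11563. In Ox1RΔSERT mice 11243, 11601, 11613 and 11708 they were 2, 73, 2 and 84. Thus 6 mice did not reach 3 counts, which is taken as the detection floor, while mice 11601 and 11708 held nearly all reads of *Tmem26*. As counts scaled to the library with TMM factors (CPM), the group means were 0.814 ± 0.897 (SD, n = 4) in Ox1RΔSERT and 0.0398 ± 0.0213 (SD, n = 4) in control mice. Against the highest floor of a control mouse, which was 0.0951 CPM, the Ox1RΔSERT mean was at least 8.56-fold higher. The difference of the means had an exact permutation p of 0.171 (two-sided, 70 assignments, smallest possible p 0.0286).

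*Tbx1* (ENSMUSG00000009097, chromosome 16, 18580979 to 18590671), a T-box transcription factor used to mark beige cells of inguinal fat, had 1, 7, 1 and 2 counts in control mice 10684, 11253, 11560 and 11563. In Ox1RΔSERT mice 11243, 11601, 11613 and 11708 it had 6, 1, 0 and 2 counts. The highest values were in 1 mouse of each group, both outside the pair with high *Tmem26*, and the groups overlapped (exact permutation p = 0.543). Of the 16 T-box genes, 8 passed the filter on low counts. In edgeR 0 of these had an unadjusted p under 0.05, against 15.2% of all genes tested. *Tbx15*, which takes part in the development of brown and glycolytic muscle lineages, had a log2 fold change of 0.64 (exact permutation p = 0.371), and *Tbx3* one of -0.66 (0.143).

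*Slc36a2* (ENSMUSG00000020264, chromosome 11, 55158470 to 55185077) had 394, 350, 383 and 372 CPM in control mice 10684, 11253, 11560 and 11563. In Ox1RΔSERT mice 11243, 11601, 11613 and 11708 it had 377, 290, 384 and 283 CPM. In CPM the 2 mice with high *Tmem26* were the lowest in *Slc36a2*, and the other 2 Ox1RΔSERT mice lay within the control range. The log2 fold change was -0.17 (standard error 0.13, edgeR; exact permutation p = 0.286). In TPM the means were 150 ± 17.1 (SD, n = 4) in Ox1RΔSERT and 135 ± 14.4 (SD, n = 4) in control mice, the opposite direction. Mice 11601 (151 TPM) and 11708 (143 TPM) were then not the lowest. Mice 11601 and 11613 (173 TPM) lay above the highest control mouse (148 TPM). Scaling by TPM raised the median log2 fold change of all genes to 0.32 and scaling by library size alone raised it to 0.22, against 0.00 with TMM. *Slc36a2* lay below that median in each of these fits (0.15 in TPM + 0.1 and 0.03 by library size). Its relatives *Slc36a1* and *Slc36a4* were at 3.36 and 1.13 TPM (medians of 8 mice), and *Slc36a3* had at most 2 counts. None of the 3 tested members of this family had an unadjusted p under 0.05, against 15.2% of all genes tested.

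*Hoxc8* (ENSMUSG00000001657), *Hoxc9* (ENSMUSG00000036139) and *Hoxc10* (ENSMUSG00000022484) lie side by side in the HoxC cluster, on chromosome 15 of GRCm38 between 102966796 (start of *Hoxc10*) and 102994111 (end of *Hoxc8*). Expression ended sharply between neighbours. *Hoxc8* had 50 to 250 counts in each mouse, *Hoxc9* had 0 to 5, and *Hoxc10* had 0 in every mouse, which allows at most 0.0592 to 0.0951 CPM depending on the mouse. The more anterior genes of the same cluster were higher, with median levels of 3.31 TPM for *Hoxc4*, 4.63 for *Hoxc5* and 4.82 for *Hoxc6*. Exons of *Hoxc10* share 166 bases with *Hoxc5* on the same strand, so reads from these bases could have been given to either gene.

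A similar posterior limit was seen in the other Hox clusters, although not every anterior gene was detected. Of the 23 genes with paralog numbers 1 to 8, 19 had at least 10 counts in every mouse, led by *Hoxa5* with a median of 9.66 TPM. The exceptions were *Hoxa6* (6 to 14 counts), *Hoxb1* (0 in every mouse), *Hoxd1* (0 to 2) and *Hoxd3* (0 to 3). Of the 4 genes with number 9, *Hoxd9* was the only one with at least 10 counts in every mouse (median 0.268 TPM). All 12 genes numbered 10 to 13 had at most 2 counts in any mouse, and 8 of them had none. The 8 mice of both genotypes shared this pattern, and no mouse had more than 2 counts of a gene numbered 10 to 13.

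**Figure D2:**
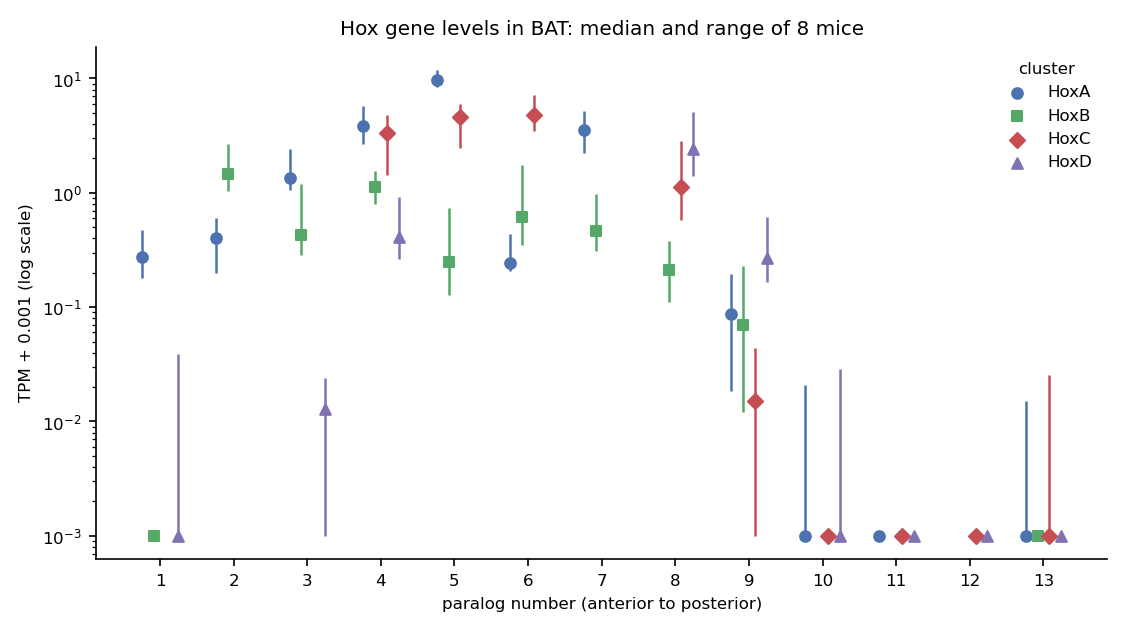
Level of the 39 Hox genes against their paralog number, by cluster (colours and symbols), as TPM + 0.001 on a log axis. Points are medians and lines the range of 8 mice. All 12 genes numbered 10 to 13 have a median of 0, while Hoxc8 lies at 1.13 TPM.

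Between genotypes, *Hoxc8* had 4.63, 2.51, 3.18 and 1.39 CPM in control mice 10684, 11253, 11560 and 11563. In Ox1RΔSERT mice 11243, 11601, 11613 and 11708 it had 2.53, 0.986, 2.72 and 5.14 CPM. Mouse 11601 was the lowest of the 8 and mouse 11708 the highest, so this gene did not follow *Tmem26*. The log2 fold change was -0.04 (standard error 0.50, edgeR; exact permutation p = 0.971). *Hoxc9* had 0, 1, 1 and 5 counts in the same control mice and 2, 3, 1 and 2 in the same Ox1RΔSERT mice, at or near the floor throughout. Of the 20 Hox genes tested, 1 had an unadjusted p under 0.05, *Hoxa5* (log2 fold change -0.44), against 15.2% of all genes tested. The count was 0 when mice 11601 and 11708 were left out, and scaling by library size alone or by TPM gave 2, both higher in Ox1RΔSERT mice. These counts moved with those of all genes. Without both mice, 424 of 14856 genes passed. Of 14489 genes, 3100 passed by library size alone, 3200 in TPM + 0.1 and 3038 in TPM + 1, against 2201 with TMM.

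*Tcf21* (ENSMUSG00000045680, chromosome 10, 22817281 to 22820174), a transcription factor of white adipocyte progenitors and of visceral fat mesenchyme, had 0 counts in every mouse, also in mice 11601 and 11708. Markers of mesothelium, the cell layer that covers visceral fat, were low. The summed level of the 8 genes was 0.0420 to 0.209 TPM in control and 0.0910 to 0.902 TPM in Ox1RΔSERT mice. *Lrrn4*, the only 1 of these genes that passed the filter, had 7 to 27 counts in each mouse (0.0420 to 0.182 TPM). *Krt19* had at most 6 counts. *Upk1b* and *Bnc1* had 0 counts in all mice, *Upk3b* at most 1, *Msln* at most 4 and *Wt1*, which also marks visceral white progenitors, at most 5. *Krt8* had 56 counts in mouse 11708 and at most 4 in each of the other 7.

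*Npr3* (ENSMUSG00000022206, chromosome 15, 11839896 to 11907287), the natriuretic peptide clearance receptor, which removes the peptides that stimulate lipolysis and thermogenesis, was abundant in both groups. Control mice 10684, 11253, 11560 and 11563 had 85.5, 94.3, 136 and 278 CPM. Ox1RΔSERT mice 11243, 11601, 11613 and 11708 had 135, 154, 92.5 and 124 CPM. The highest mouse was control mouse 11563, and all 4 Ox1RΔSERT mice lay inside the control range. The log2 fold change was -0.23 (standard error 0.36, edgeR; exact permutation p = 0.800), and 0.25 without mouse 11563. Exons of *Npr3* share 321 bases with an antisense gene that is not in the table.

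The receptors of the same system were measured beside it. *Npr1*, the guanylyl cyclase receptor of atrial and B-type peptide, had a log2 fold change of -0.52 (standard error 0.16, exact permutation p = 0.0571) and was the only 1 of the 4 tested genes of the list with an unadjusted p under 0.05. Its adjusted p was 0.316 in edgeR and 0.0795 in DESeq2, and without mice 11601 and 11708 the log2 fold change was -0.53. In this list 1 gene passed as lower with TMM, 0 passed by library size alone and 1 passed as higher in TPM. *Npr1* itself did not turn in TPM, with means of 27.76 in Ox1RΔSERT and 30.65 in control mice. Of all 14489 genes tested, 2201 (15.2%) passed with TMM, 3100 by library size alone, 3200 in TPM + 0.1 and 3038 in TPM + 1. *Npr2*, the receptor of C-type peptide, was at 0.07 (exact permutation p = 0.714). The peptides *Nppa*, *Nppb* and *Nppc* had at most 1 count each.

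*Mest* (ENSMUSG00000051855, chromosome 6, 30723547 to 30748465), an imprinted gene that rises with the expansion of white adipocytes, had 0.262, 0.666, 0.248 and 0.925 CPM in control mice 10684, 11253, 11560 and 11563. Ox1RΔSERT mice 11243, 11601, 11613 and 11708 had 1.42, 4.24, 0.718 and 2.59 CPM. Of the 4 Ox1RΔSERT mice, 3 lay above all control mice, and mouse 11613 lay below control mouse 11563. Ox1RΔSERT mice averaged 2.24 ± 1.54 (SD, n = 4) and control mice 0.525 ± 0.329 (SD, n = 4), a 4.27-fold difference. In edgeR the log2 fold change came to 2.09 (standard error 0.62), the unadjusted p to 0.00885 and the adjusted p to 0.316 (exact permutation p = 0.0571). The level remained low, at most 2.36 TPM. Exons of *Mest* share 912 bases with *Copg2* on the opposite strand, and strand use in the quantification is not given in the sources used here. *Copg2* itself had 13.9 to 20.7 CPM in control and 16.2 to 19.1 CPM in Ox1RΔSERT mice (log2 fold change 0.15, exact permutation p = 0.314).

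*Sncg* (ENSMUSG00000023064, chromosome 14, 34370274 to 34374789), gamma-synuclein, an abundant protein of white adipocytes and of peripheral neurons, had 26.7, 37.5, 25.4 and 45.5 CPM in control mice 10684, 11253, 11560 and 11563. Ox1RΔSERT mice 11243, 11601, 11613 and 11708 had 38.1, 77.7, 41.1 and 67.9 CPM. In CPM mice 11601 and 11708 lay above all control mice, and the other 2 lay within the control range. In TPM mouse 11613 (45.7) also lay just above the highest control mouse, 11563 (44.9). The exact permutation p was 0.0571 in TPM and by library size alone, against 0.114 with TMM. Ox1RΔSERT mice averaged 56.2 ± 19.6 (SD, n = 4) and control mice 33.8 ± 9.50 (SD, n = 4), a 1.66-fold difference. In edgeR the log2 fold change came to 0.73 (standard error 0.28), the unadjusted p to 0.0271 and the adjusted p to 0.316 (exact permutation p = 0.114). Nerve genes were read as well because *Sncg* is also neuronal. Of the 8 tested Schwann cell and nerve genes, 1 had an unadjusted p under 0.05, against 15.2% of all genes tested. The median log2 fold change of these 8 was -0.14, with 2 above 0. The summed level of the list was 99.5 to 140 TPM in control and 124 to 144 TPM in Ox1RΔSERT mice. The 1 gene that passed was the neuronal tubulin *Tubb3*, at 0.0630 to 1.49 TPM with its highest values in mice 11601 and 11708. *Gap43*, a protein of growing axons, was removed by the filter and had 3, 1, 0 and 2 counts in control mice 10684, 11253, 11560 and 11563 and 2, 68, 4 and 21 counts in Ox1RΔSERT mice 11243, 11601, 11613 and 11708 (exact permutation p = 0.0571, DESeq2 adjusted p = 0.0830). The part of nerve in the values of *Sncg* was not tested.

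**Figure D3:**
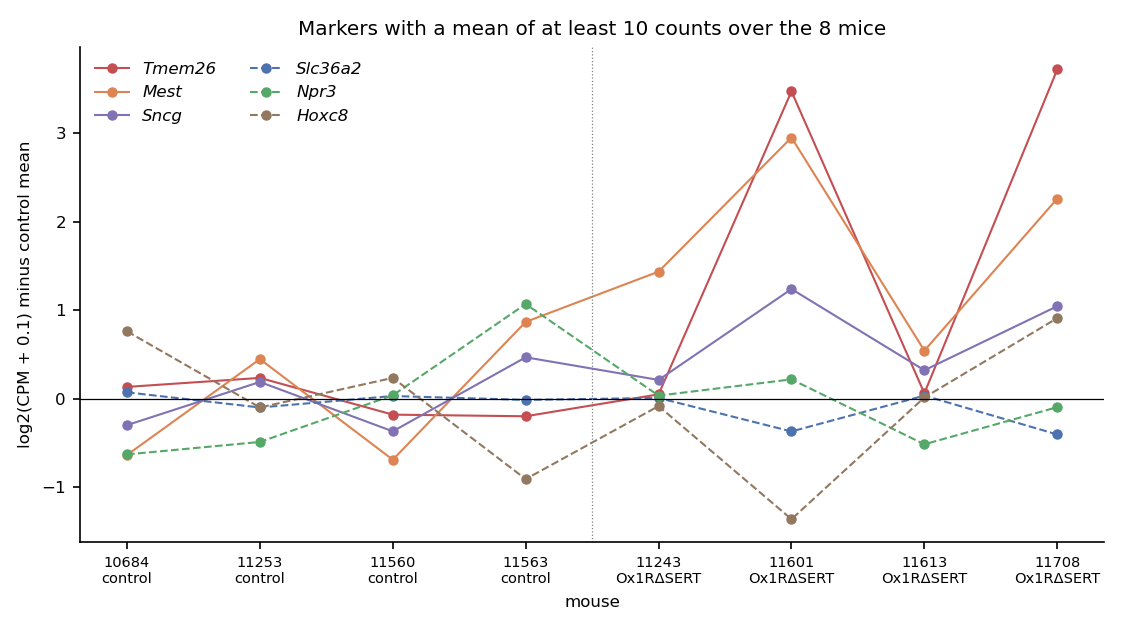
Markers with a mean of at least 10 counts over the 8 mice, shown for each mouse as log2(CPM + 0.1) minus the mean of the 4 control mice, with 1 line per gene. Tmem26, Mest and Sncg (solid lines) peak in mice 11601 and 11708, while Slc36a2, Npr3 and Hoxc8 (dashed lines) do not share these peaks.

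Of the 5 genes that passed the filter (*Slc36a2*, *Hoxc8*, *Npr3*, *Mest* and *Sncg*), 0 were called by edgeR at an adjusted p under 0.05, as were 0 (0%) of all 14489 genes tested. At an unadjusted p under 0.05 there were 2 of these 5, *Mest* and *Sncg*, both higher, against 15.2% of all genes tested (10.2% higher and 4.96% lower in Ox1RΔSERT mice). DESeq2 called 2 of the 10 genes, *Tmem26* (adjusted p = 0.0322) and *Mest* (adjusted p = 0.0409), and gave 0.146 for *Sncg*. It gave no adjusted p for *Tbx1*, *Hoxc9*, *Hoxc10* and *Tcf21*, so that these could not be called. Among all 15119 genes it adjusted, 1.75% were called (265 genes, but 17 to 1516 with 1 mouse left out). Over all fits that were made, adjusted p-values lay between 0.00135 and 1 for *Tmem26*, between 0.00382 and 1 for *Mest* and between 0.0300 and 1 for *Sncg*. The groups were without overlap for 0 of the 5 tested genes, against 5.5% of all genes tested. The median log2 fold change of the 5 genes was -0.04, and that of all genes 0.00.

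Mice 11601 and 11708 held the highest values of *Tmem26*, *Mest* and *Sncg*, so that leaving them out had to lower the differences and is given as a description. With both left out, which left 2 Ox1RΔSERT mice, the log2 fold change was 1.03 for *Mest* and 0.23 for *Sncg*, both with an adjusted p of 0.996 in edgeR, and the 4 control and 2 remaining mice had 1 or 2 counts of *Tmem26*. Of the 2 remaining mice, 11243 (1.42 CPM of *Mest*) still lay above all control mice. Leaving out 1 mouse at a time kept *Mest* between 1.58 and 2.51 with unadjusted p-values of 0.00314 to 0.0276. For *Sncg* it gave 0.54 to 0.89 with unadjusted p-values of 0.0124 to 0.0795, above 0.05 without control mouse 10684 or 11560 or Ox1RΔSERT mouse 11601 or 11708. DESeq2 gave *Tmem26* no p-value without mouse 11601 or without mouse 11708, and did not call it without control mouse 11560 (adjusted p = 0.214) or 11563 (0.154). *Mest* was called by DESeq2 in 4 of its 10 fits.

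The promoters of these 3 genes are shown because the genes had their highest values in the same 2 mice. RefSeq promoter windows of 300 bases (GRCm38.p6, 250 before and 50 after a transcript start) were found for 6 of the 10 genes, *Tmem26*, *Tbx1*, *Tcf21*, *Npr3*, *Mest* and *Sncg*. The 120 bases before the RefSeq start are printed 5′ to 3′ on the strand of the gene, at chr10:68723626-68723745 (plus strand) for *Tmem26*, chr6:30737930-30738049 (plus strand, the second of 3 listed starts, which lies 3 bases from the third) for *Mest* and chr14:34374670-34374789 (minus strand) for *Sncg*. These starts differ from the outer ends of the genes in GENCODE, where *Tmem26* begins at 68723646. By GENCODE, most of the printed bases of *Tmem26* and all of those of *Mest* and *Sncg* lie inside the gene. Capitals mark matches to any of 5 motifs, searched on both strands: the TATA box (TATAAA), the CCAAT box (CCAAT), the GC box (GGGCGG), a nuclear receptor half-site (AGGTCA) and a C/EBP-like site (TTNNGNAA).
Tmem26: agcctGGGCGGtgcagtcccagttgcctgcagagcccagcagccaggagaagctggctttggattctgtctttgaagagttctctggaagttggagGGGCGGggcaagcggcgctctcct
Mest: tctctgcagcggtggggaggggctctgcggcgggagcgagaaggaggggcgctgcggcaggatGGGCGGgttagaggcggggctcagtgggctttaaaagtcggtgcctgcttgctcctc
Sncg: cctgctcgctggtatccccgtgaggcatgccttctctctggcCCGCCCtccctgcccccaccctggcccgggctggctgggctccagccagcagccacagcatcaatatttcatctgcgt
In these 3 windows the only matches were to the GC box, starting at -115 and -24 for *Tmem26*, -57 for *Mest* and -78 for *Sncg*, counted from the RefSeq transcript start. The window of the first *Mest* start, at 30733506, held a GC box at -13 and a TTNNGNAA match at -155. The GC box is present in 35.6% of the 32817 promoters of this length, so that its presence is common. The shares of promoters with the other motifs were 13.6% for TATAAA, 37.4% for CCAAT, 16.3% for AGGTCA and 40.7% for TTNNGNAA. The windows held 9 CG dinucleotides for *Tmem26*, 17 for *Mest* and 9 for *Sncg*, against a median of 7 (quartiles 3 and 20) over all promoters. The GC share was 60.7%, 62.7% and 61.3% in the same order, near the upper quartile of 61.7%. A match is a description of letters and was not tested as a binding site.

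Genes whose pattern over the 8 mice was closest differed between the markers. By the mean absolute difference of centred log2(CPM + 0.1) values, *Tmem26* was nearest to *Cd44*, a hyaluronan receptor of leukocytes and mesenchymal cells (0.205), *Cd80*, a costimulatory ligand of antigen-presenting cells (0.263), and *F10*, coagulation factor X (0.288), where the median gene was 1.34 away. *Mest* was nearest to *Tfpi2* (0.294), *Glis3* (0.333) and *Lgals3*, galectin-3 (0.337). *Sncg* was nearest to *Nab2* (0.0708), *Cnn2* (0.0843) and *Lrrfip1* (0.0951). *Slc36a2* was nearest to *Lamtor2* (0.0194), *Cyhr1* and *Pskh1*, *Npr3* to *Ccdc96* (0.164), *Gpc2* and *Arhgap20*, and *Hoxc8* to *Gchfr* (0.248), *H3f3aos* and *Slc12a5*. These distances are descriptions over 8 mice that share their libraries.

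Macrophage and fibroblast genes moved with *Tmem26*, *Mest* and *Sncg*. The summed level of 12 macrophage markers was 84.9 to 168 TPM in control mice and 126, 911, 177 and 673 TPM in Ox1RΔSERT mice 11243, 11601, 11613 and 11708. The summed level of 11 fibroblast and adipocyte progenitor markers was 193 to 316 TPM in control mice and 268, 1997, 398 and 950 TPM in the same Ox1RΔSERT mice. All 12 and all 11 of these genes had their 2 highest CPM values in mice 11601 and 11708, as had 20.1% of all genes tested, and none of them was at 0 in any mouse. At an unadjusted p under 0.05, 11 of 12 macrophage genes and 11 of 11 progenitor genes were higher, against 10.2% of all genes tested. With both mice left out, 0 and 1 (*Pi16*, 0.59) were higher, and 424 of all 14856 genes then tested passed in either direction. The most abundant macrophage genes were the lysozyme *Lyz2* (37.3 to 492 TPM) and the complement genes *C1qb* (15.2 to 129 TPM) and *C1qa* (15.0 to 95.7 TPM), and DESeq2 called *Mrc1*, *Cd14*, *Itgam* and *Trem2* (log2 fold changes 1.43, 1.65, 1.75 and 2.83 in edgeR). The most abundant progenitor genes were *Col3a1* (42.0 to 1031 TPM), *Ly6a* (84.3 to 266 TPM) and *Dcn* (37.4 to 216 TPM), and DESeq2 called the receptor *Pdgfra* (1.27 to 8.66 TPM, adjusted p = 0.0322). *Col1a1* had the next lowest p in edgeR (log2 fold change 2.38). Skeletal muscle genes were distributed differently, with a summed level of 760 TPM in control mouse 11253, 1533 in 11708, 145 in 11601 and 1.43 to 25.2 TPM in the other 5 mice. The part of these cell types in the values of *Tmem26*, *Mest* and *Sncg* was not tested.

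**Figure D4:**
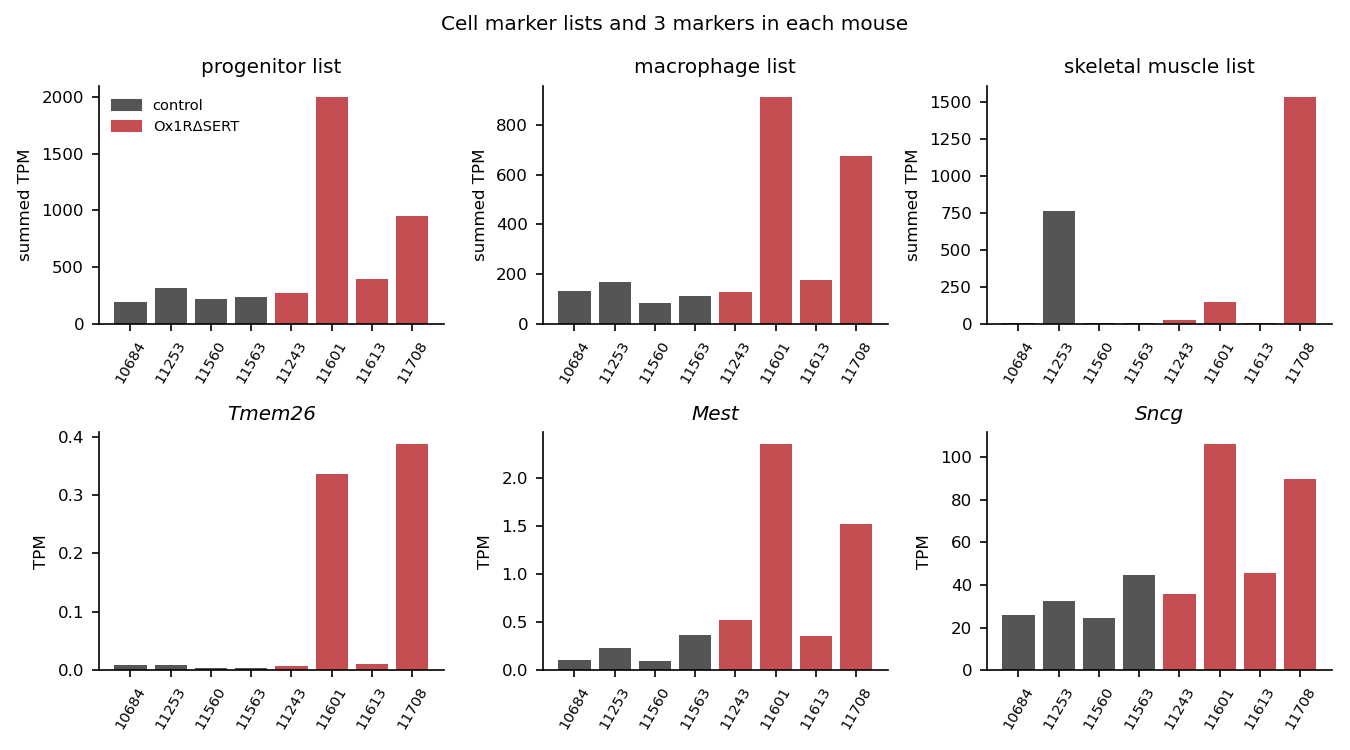
Summed TPM of the fixed marker lists for fibroblasts and adipocyte progenitors, macrophages and skeletal muscle (top row) and TPM of Tmem26, Mest and Sncg (bottom row) in each mouse, on linear axes from 0. Mice 11601 and 11708 have the tallest bars in all panels but skeletal muscle, where 11708 is followed by control mouse 11253.

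Of 12 other genes used to mark beige adipocytes, 11 were tested, with a median log2 fold change of 0.15. In edgeR 0 of these had an unadjusted p under 0.05, against 15.2% of all genes tested. The most abundant were *Aqp7*, a glycerol channel (median 42.9 TPM, log2 fold change -0.13), the fatty acid transporter *Slc27a1* (27.7 TPM, 0.15) and the purinergic receptor *P2rx5* (17.2 TPM, 0.04). The lowest p-values in edgeR belonged to *Klhl13* (log2 fold change 0.73, exact permutation p = 0.143) and *Sp100* (0.62, 0.314), both with their highest values in mice 11601 and 11708. By library size alone 2 of the list passed and in TPM + 0.1 there was 1, all higher. Of all 14489 genes tested, 3100 and 3200 passed in these settings, against 2201 with TMM. With mice 11601 and 11708 left out, the median of the list was -0.06.

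Of 16 other markers of white adipocytes, 15 were tested, with a median log2 fold change of 0.40 and values above 0 for 13 of them. At an unadjusted p under 0.05 there were 2 higher and 1 lower, against 10.2% higher and 4.96% lower of all genes tested. Higher genes numbered 4 by library size alone, 6 in TPM + 0.1 and 5 in TPM + 1, with 1 lower in each. Of all 14489 genes tested, 3100, 3200 and 3038 passed in these settings, against 2201 with TMM. The matrix gene dermatopontin, *Dpt*, had 35.8, 75.5, 42.9 and 47.4 CPM in control mice 10684, 11253, 11560 and 11563 and 52.6, 228, 65.3 and 126 CPM in Ox1RΔSERT mice 11243, 11601, 11613 and 11708 (log2 fold change 1.22, exact permutation p = 0.143). *Lep*, the gene of the adipocyte hormone leptin, had 114, 31.7, 23.0 and 45.6 CPM in the control mice and 82.6, 92.7, 40.4 and 144 CPM in the Ox1RΔSERT mice in the same order, so that the groups overlapped (log2 fold change 0.75, exact permutation p = 0.314). *Nnmt*, a methyltransferase that is high in white fat and liver, went the other way, with 53.8 to 78.5 CPM in control and 26.7 to 46.8 CPM in Ox1RΔSERT mice, without overlap, although in TPM the groups overlapped (log2 fold change -0.87; exact permutation p = 0.0286; adjusted p 0.316 in edgeR and 0.0155 in DESeq2). The co-regulator *Tle3* was the third, at a log2 fold change of 0.30 (exact permutation p = 0.0571). Without mice 11601 and 11708 the median of the list was 0.09, *Dpt* no longer passed, and *Nnmt* (-0.76) and *Tle3* (0.38) still had an unadjusted p under 0.05. In that fit 424 of all 14856 genes passed.

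The 22 brown adipocyte markers had a median log2 fold change of -0.25. At an unadjusted p under 0.05, 7 were lower and 1 higher, against 4.96% lower and 10.2% higher of all genes tested. The 3 most abundant were *Cox8b* (median 3591 TPM, log2 fold change -0.33), *Ucp1* (2016 TPM, -0.54) and *Cox7a1* (1547 TPM, -0.40), of which the last 2 passed. *Bmp8b*, a secreted factor of active brown fat, was at -1.47 and *Elovl3*, a fatty acid elongase, at -1.07, both without overlap of the groups in CPM and called by DESeq2 (adjusted p = 0.0184 and 0.0406). The 1 that was higher was *Epsti1* (1.42). With TPM + 0.1 scaling the median of the list was 0.08, below the 0.32 of all genes, and 2 genes were lower and 1 higher. Of all 14489 genes tested, 3200 passed in this setting, against 2201 with TMM. Without mice 11601 and 11708 the median was -0.13, with *Bmp8b* (-1.50), *Elovl3* (-0.73) and *Lhx8* (-0.61) lower and *Adrb3*, the beta-adrenergic receptor of adipocytes, higher (0.74) at an unadjusted p under 0.05. In that fit 424 of all 14856 genes passed.

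**Figure D5:**
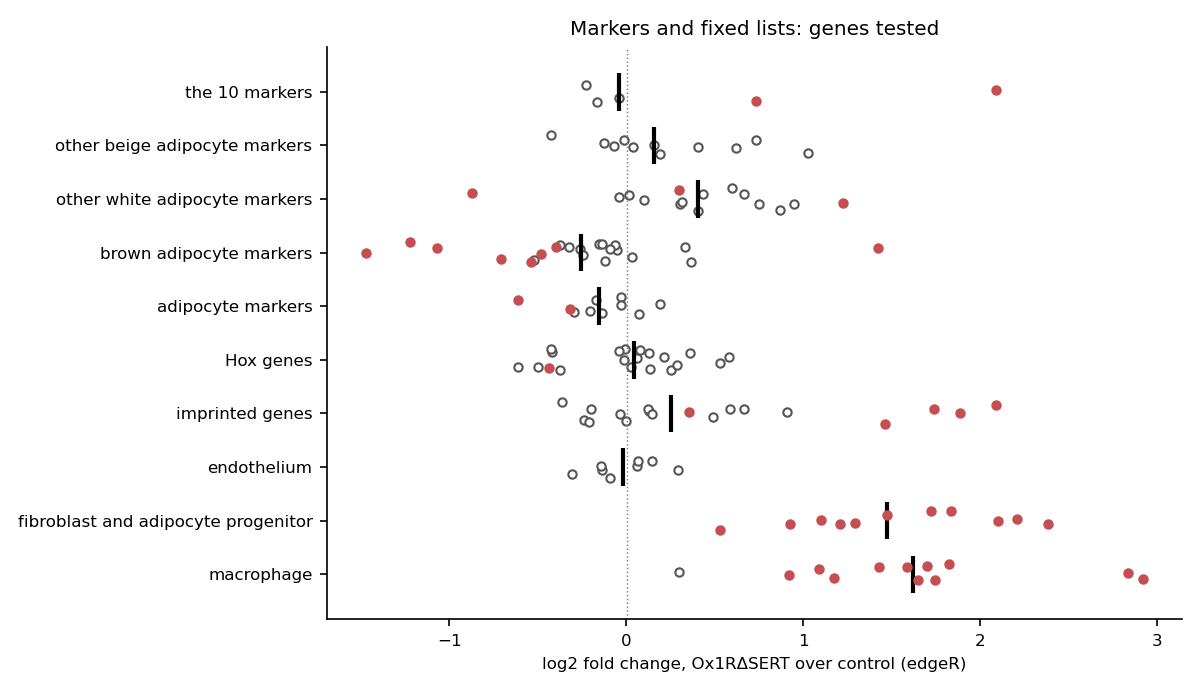
Log2 fold change, Ox1RΔSERT over control (edgeR, TMM), of each tested gene in 10 of the fixed lists, with the median of each list as a black bar and the median of all genes as a dotted line. Filled points have an unadjusted p under 0.05. Medians lie at 0.15 for other beige, 0.40 for other white and -0.25 for brown markers, and at 1.47 and 1.62 for progenitor and macrophage genes.

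*Mest* was also read within a list of 21 imprinted genes that includes *Mest* itself, of which 18 were tested. The median log2 fold change of these 18 was 0.25. At an unadjusted p under 0.05, 5 were higher and 0 lower, against 10.2% higher and 4.96% lower of all genes tested. Besides *Mest* these were *Meg3*, a maternally expressed noncoding RNA (log2 fold change 1.88, DESeq2 adjusted p = 0.0174), *Dlk1*, an inhibitor of adipocyte differentiation (1.74), *Plagl1* (1.46) and the receptor *Igf2r* (0.36). All 5 had their highest values in mice 11601 and 11708, as had 20.1% of all genes tested. With these mice left out 0 of the list passed, and 424 of all 14856 genes then tested did. *Meg3* had 7.95 to 13.9 CPM in control mice and 13.6, 84.4, 20.2 and 54.7 CPM in Ox1RΔSERT mice 11243, 11601, 11613 and 11708. *Ndn* (median 9.78 TPM, log2 fold change 0.13) and *Impact* (8.97 TPM, -0.21), the most abundant of the list, did not pass.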

How the data were processed

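BAT RNA of 8 mice was sequenced as stranded poly-A libraries. Per the labels and methods, the authors quantified reads with Salmon 0.14.1 within nf-core/rnaseq on GRCm38 and deposited estimated counts per gene, not normalized, and TPM, scaled by the authors for transcript length. Mice were grouped by the genotype label. Symbols and positions came from GENCODE M21. Counts were rounded, filtered with filterByExpr and tested with edgeR 4.0.16 (TMM, quasi-likelihood, Benjamini-Hochberg) in R 4.3.3. Single genes were compared by exact permutation of the group labels. Alternatives were DESeq2 1.42.0, other scalings, filters and pseudocounts, limma 3.58.1 and leaving out mice. The fits were tested on simulated counts. Intervals and floors (3 counts) cover counting error only, and p-values the spread between mice. The members and lists were chosen with earlier results of these data known. Named were all members, from lists described by gene mainly the 3 genes of highest median TPM, the 2 of lowest p and DESeq2 calls (fewer where a list bears little on a member), and for members with a mean of at least 10 counts the 3 nearest genes. *Bnc1*, *Upk1b*, *Upk3b*, *Wt1*, *Dlk1*, *Plagl1*, *Tle3* and the Hox genes beyond *Hoxa5* were named after their values were seen, as were the natriuretic peptides, *Epsti1*, *Lhx8*, *Adrb3*, *Pi16* and *Gap43*. The authors' comparison was not used here.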

Additional observations from a re-analysis of the deposited data

Results flagged for a closer look

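In control mice, *Tbx1* was far higher in mouse 11253 (0.222 CPM, from 7 counts) than in the other 3 (1 or 2 counts each). The gap to the nearest mouse was 0.902 of the range of the group, above the 95% critical value of Dixon for 4 samples. Of the 16 groups checked this was the only one, and chance gives about 1 in 20. Mouse 11253 also had 760 TPM of summed skeletal muscle markers, against 1.43 to 5.39 TPM in the other control mice. The part of this in the value was not tested.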

How the results depend on the processing

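No paired analysis was possible because the replicate numbers only name the mice. edgeR and limma called 0 genes under every setting, whereas DESeq2 called 265 (2578 genes at an unadjusted p under 0.05), from 17 (without control mouse 11560 or Ox1RΔSERT mouse 11601) to 1516 (without 11243) with 1 mouse left out and 8 without mice 11601 and 11708. With 1 mouse left out, genes at an unadjusted p under 0.05 numbered 1018 to 3331 against 2201 in all mice, and 424 without mice 11601 and 11708 together, which was chosen after seeing the data, as was leaving mice out of DESeq2. Markers at an unadjusted p under 0.05 numbered 1 to 2 with 1 mouse left out and 0 without mice 11601 and 11708. Markers called by DESeq2 numbered 0 to 3 with 1 mouse left out and 0 without both, against 2 in all mice. The log2 fold change of *Slc36a2* turned to 0.032 by library size alone, to 0.15 in TPM with either pseudocount and to 0.028 without both mice (exact permutation p = 0.286 in TPM and 0.743 by library size). That of *Hoxc8* turned to 0.17 by library size, 0.18 in TPM + 0.1, 0.12 in TPM + 1, 0.24 without mouse 11601 and, over all fits without 1 mouse, ranged from -0.49 to 0.27 (without control mouse 10684; exact permutation p = 0.657 in TPM and 0.829 by library size). That of *Npr3* turned to 0.26 in TPM + 0.1, 0.24 in TPM + 1 and, over all fits without 1 mouse, ranged from -0.42 to 0.25 (without control mouse 11563; exact permutation p = 0.800 in TPM). None of these 3 genes passed a threshold under any setting. *Mest* (0.77 to 2.51) and *Sncg* (0.23 to 1.01) kept their direction under all settings. Genes with under 3 counts in most mice, *Tmem26*, *Tbx1* and *Hoxc9*, are limited by depth.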
